A study of Drosophila melanogaster with 2 samples.

Results

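The regions described here are the weaker peaks that follow the accepted set in a map of the Drosophila protein Psq. They are ranks 3000 to 6000, both included, of the 30000 peaks called on both replicates pooled, or 10% of that list. These members were chosen by the authors' peak score in that pooled list, highest first, on the dm6 assembly. The ranks above 3000 are, peak for peak, the authors' IDR set (irreproducible discovery rate, a test of agreement between replicates), called the accepted set here, so every member lies just below it. The assay was chromatin immunoprecipitation followed by sequencing (ChIP-seq) on whole embryos aged 0 to 24 hours, males and females together. All embryos came from 1 transgenic line, psq-GFP, which carries Psq fused at its C terminus to GFP, and chromatin was pulled down through the GFP. The 2 biological replicates, numbered 3 and 4 in the labels, form 1 group, with no other genotype, treatment or stage beside it. An untagged strain was not analysed here. In whole embryos, weak occupancy in many cells and strong occupancy in few cells cannot be told apart.

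Psq (pipsqueak) is a nuclear protein with a BTB domain, through which such proteins pair with each other, and a repeated DNA-binding domain that recognises GAGA-type sequence. It is known from genetics for its part in egg patterning and eye development and for links to the Polycomb and trithorax groups, which keep genes off or on. The GAGA factor, encoded by Trl, binds the same kind of repeat. A ChIP-seq summit is the position of highest enrichment within a peak, and a promoter is here the sequence within 500 bp of an annotated transcription start site (TSS).

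First come 4 of the highest-scoring members that were among the 6000 strongest peaks of both replicates, with no stronger pooled summit within 1000 bp, to show what strong members look like. Each line gives the summit base and 50 bases on each side, from the plus strand of the RefSeq dm6 genome, with any GAGAG, its reverse CTCTC, or TATCGATA in capitals. CG1607 is the nearest gene of chr3R:31381371-31381471, an intergenic summit 688 bp upstream of a TSS. Dhpr, which encodes dihydropteridine reductase, has chr3L:9134503-9134603 at its promoter, 7 bp from a TSS. Drak, a gene for a protein kinase, is the nearest gene of chrX:11518529-11518629, an intronic summit 24760 bp from its TSS. Lim1, which encodes a LIM-homeodomain transcription factor, is the nearest gene of chrX:8774226-8774326, an intronic summit 11077 bp away. None of these 4 windows holds a capital, so none carries GAGAG or TATCGATA within 50 bp of the summit.
CG1607: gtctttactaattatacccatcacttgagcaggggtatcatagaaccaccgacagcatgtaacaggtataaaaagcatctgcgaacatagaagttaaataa
Dhpr: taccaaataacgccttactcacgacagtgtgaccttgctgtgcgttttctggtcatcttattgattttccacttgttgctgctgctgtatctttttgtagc
Drak: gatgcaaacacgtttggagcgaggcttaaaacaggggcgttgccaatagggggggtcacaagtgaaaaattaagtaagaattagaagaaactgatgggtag
Lim1: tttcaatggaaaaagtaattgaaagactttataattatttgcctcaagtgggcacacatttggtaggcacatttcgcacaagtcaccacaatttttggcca

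The next 4 are among the strongest members with no stronger summit within 1000 bp that hold TATCGATA. This octamer is the DNA replication-related element (DRE), and of 10 elements searched it had the lowest adjusted p against the sequence beside the summits. All 4 are promoter summits, between 27 and 41 bp from a TSS. They lie at chr2L:3872447-3872547 beside CG31957 and at chrX:18893613-18893713 beside Flacc, which encodes a component of the m6A RNA methylation machinery. The other two lie at chrX:7933659-7933759 beside the ribosomal protein gene RpS14a and at chr2L:7032630-7032730 beside Caper, which encodes an RNA-binding protein.
CG31957: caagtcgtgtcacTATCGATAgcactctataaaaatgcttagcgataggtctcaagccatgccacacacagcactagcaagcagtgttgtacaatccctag
Flacc: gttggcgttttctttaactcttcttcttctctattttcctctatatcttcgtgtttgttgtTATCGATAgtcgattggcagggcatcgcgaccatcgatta
RpS14a: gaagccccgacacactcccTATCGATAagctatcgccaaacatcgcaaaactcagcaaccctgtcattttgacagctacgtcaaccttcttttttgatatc
Caper: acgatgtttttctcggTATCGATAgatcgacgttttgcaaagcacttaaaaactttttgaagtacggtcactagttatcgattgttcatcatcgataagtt

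The last 3 are among the strongest such members that hold the longer repeat GAGAGAG within 50 bp of the summit, and were picked after the values were seen. The summit at chr2L:6186565-6186665 is intronic and 7482 bp from the TSS of smal, that at chr3L:16645690-16645790 intronic and 2142 bp from the TSS of Abl, a tyrosine kinase gene, and that at chr2L:2753180-2753280 3 bp from the TSS of Bacc. The capitals show runs on either strand, the longest in the smal window.
smal: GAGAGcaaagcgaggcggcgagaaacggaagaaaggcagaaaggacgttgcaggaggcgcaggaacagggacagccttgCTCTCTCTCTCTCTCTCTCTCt
Abl: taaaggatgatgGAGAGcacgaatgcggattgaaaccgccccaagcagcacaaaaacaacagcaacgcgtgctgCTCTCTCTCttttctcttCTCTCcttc
Bacc: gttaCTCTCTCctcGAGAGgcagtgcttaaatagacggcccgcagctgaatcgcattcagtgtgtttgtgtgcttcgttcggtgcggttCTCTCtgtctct

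The members span a narrow part of the score scale. Pooled scores ran from 72.5 at rank 3000 through a median of 55.8 to 46.2 at rank 6000, while the accepted set ran up to 2011. The deposited q-value was at its lowest possible value, 0.000136, at rank 3000 and reached 0.0171 at rank 6000. Scores rank peaks within a list and have no common unit between lists.

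The upper limit separated peaks of almost equal score. Just outside it lay a promoter summit at neur (score 72.5245), a Notch pathway ubiquitin ligase gene, and another at Gclm (72.4916), which encodes a subunit of the enzyme that begins glutathione synthesis. Just inside it lay CG1607 (72.4904) and Dhpr (72.4345). The neur peak, although in the accepted set, had no overlapping peak in replicate 3 and ranked 2136 in replicate 4. At the lower limit the last members were intronic summits at MICU3 (46.2485) and Ptp10D (46.2436), the latter a receptor tyrosine phosphatase gene. The first peaks left out were at eIF3d1 (46.2244) and Itgbn (46.2156), which encode a translation initiation factor subunit and an integrin subunit. Nothing in these scores marks either limit as a step.

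Recovery among the 6000 strongest peaks of the single replicates fell steeply across these ranks. A pooled peak counted as recovered when a peak among the 6000 strongest of a replicate's own list overlapped it by at least 1 bp. Replicate 3 recovered 2064 members, or 68.8% (95% Wilson interval 67.1 to 70.4%). Replicate 4 recovered 2148, or 71.6% (69.9 to 73.2%). Both recovered 1323, or 44.1% (42.3 to 45.9%), beside 17.7% of all 30000 pooled peaks. The replicates therefore recovered similar shares, and a minority of members was recovered by both.

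Of the accepted set both replicates recovered 98.2%, and of the 3000 ranks after rank 6000 they recovered 301, or 10%. The pooled list was called on the reads of these replicates, so the overlap is partly built in and is given as a description. The cut at 6000 is also the last rank of the members, so where the fall lies depends on that cut. With the 3000 and 9000 strongest peaks per replicate instead, both replicates recovered 8.06% and 76.5% of members. Intervals cover counting error over peaks only. As a measure of overlap without regard to position, a peak of the usual width of 440 bp would touch the 6000 strongest of replicate 3 from 3.56% of arm positions, those of replicate 4 from 3.58% and those of both from 2.36%.

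**Figure D1:**
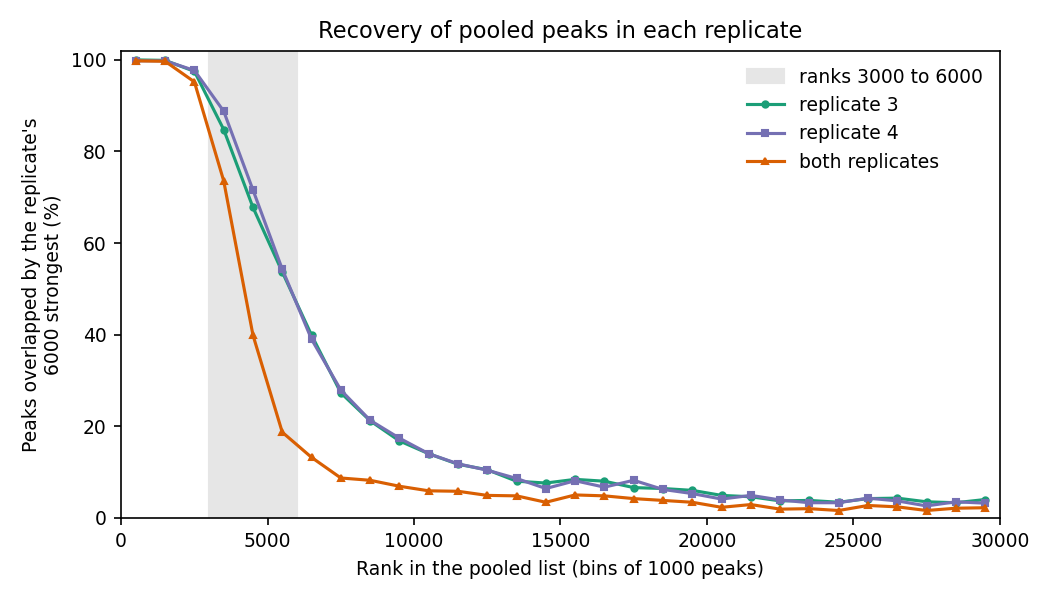
Share of pooled peaks overlapped by the 6000 strongest peaks of replicate 3, replicate 4 or both (vertical axis, %) against rank in the pooled list in bins of 1000 (horizontal axis). Across the grey band of ranks 3000 to 6000 the share recovered by both dropped from near the level of stronger peaks. It was 95.2% in the bin before the band and 13.2% in the bin after it. Where the drop lies depends on the cut at 6000 peaks per replicate.

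Within the members the drop was steady. In successive groups of 500 ranks from rank 3000, both replicates recovered 81.8%, 65.4% and 49.8%, then 30.2%, 23.2% and 14.2%. Thus the first 1000 members resembled the accepted set more than the last 1000 did in this respect. Recovery by neither replicate was 0 of 500 in each of the first 3 groups, which allows up to 0.762% by the Wilson interval, and 15.8% in the last. A high pooled score needs signal in at least 1 replicate, so the counts of 0 are partly built in. They are no measure of agreement between replicates.

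The members that only 1 replicate recovered were divided about equally, 741 by replicate 3 alone and 825 by replicate 4 alone. A further 112 were recovered by neither. Most members had some overlapping peak, since 98.6% were listed somewhere in both 30000-peak lists, which include background. Of the 3000 ranks after rank 6000 the share was 90.7%, and of the last 3000 ranks of the pooled list 18.3%. In replicate 3 the strongest overlapping peak of 607 members ranked above 3000, of 1457 it ranked 3000 to 6000, of 556 it ranked from there to 9000, of 358 lower still, and 23 had no overlapping peak. In replicate 4 the corresponding numbers were 598, 1550, 530, 304 and 19. The median rank was 4544.5 in replicate 3 and 4506.5 in replicate 4. These medians do not say where a single member lay in both lists. Members recovered by replicate 3 alone had a median rank of 3791 there and 8324 in replicate 4, and those recovered by replicate 4 alone 8428 in replicate 3 and 3903 in replicate 4.

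Compared directly, without the pooled list, each replicate held about the same share of the other's middle band, lower than the 68.8% and 71.6% of pooled members. Of the peaks at ranks 3000 to 6000 of replicate 3, 1558, or 51.9% (50.1 to 53.7%), were overlapped by the 6000 strongest of replicate 4. In the other direction the share was 1554 peaks, or 51.8% (50 to 53.6%). The corresponding shares for the ranks above 3000 were 92.3% and 92.4%, and for the 3000 ranks after rank 6000 they were 812 peaks, or 27%, and 809, or 27%. In both directions the middle band lay between its neighbours, with intervals that did not overlap theirs.

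**Figure D2:**
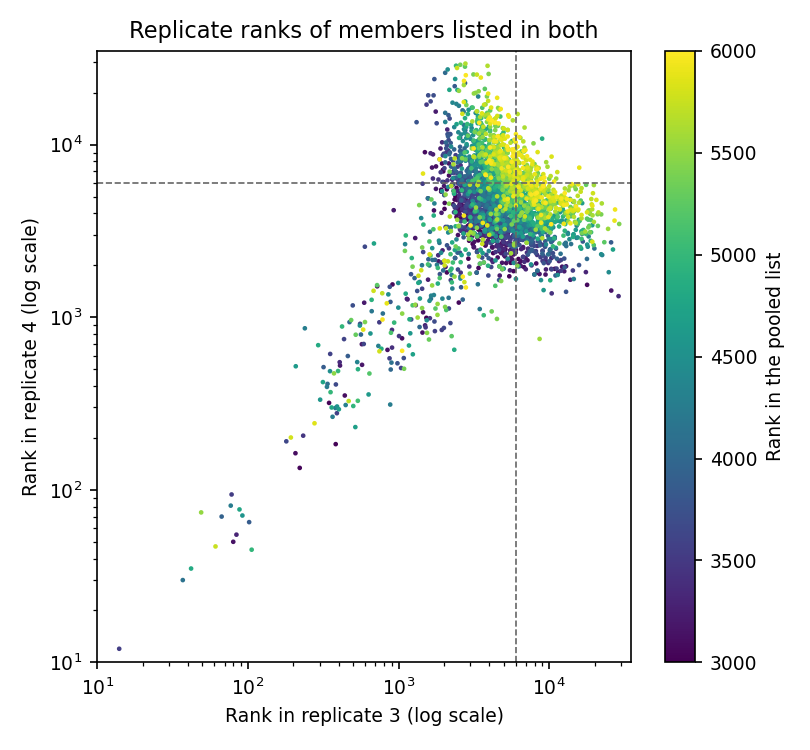
Rank in replicate 3 (horizontal axis, log scale) against rank in replicate 4 (vertical axis, log scale) of the strongest overlapping peak, for the 2959 members listed in both; each point is 1 member, coloured by its pooled rank, and dashed lines mark rank 6000. The main cloud lies around rank 4500 in both replicates without a rising trend, and a thin diagonal of much higher ranks runs to the lower left.

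Across the 2959 members listed in both replicates, the replicate ranks had a Spearman correlation of -0.04. Choosing members from a narrow range of the pooled score limits this value, because a member weak in 1 replicate enters only if it is strong in the other. The points also share the strongest overlapping peak where summits lie close together.

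Members beside a stronger summit were recovered more often. Of the members, 629, or 21.0%, had a stronger pooled summit within 1000 bp, and 282 overlapped a peak of the accepted set. Both replicates recovered 65.8% (62.0 to 69.4%) of the 629 against 38.3% (36.4 to 40.3%) of the 2372 without such a neighbour. In replicate 3, 325 of the 629 matched a peak ranked above 3000, beside 282 of the 2372. In replicate 4 the numbers were 322 and 276. The last member but 1, at MICU3, shows the case: it had a stronger summit within 1000 bp, and its strongest overlapping peaks ranked 1057 in replicate 3 and 639 in replicate 4. Whether such members are sites of their own was not tested, and recoveries through the neighbour's own peak were not counted.

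The members lay at promoters less often than the accepted set, and in introns and between genes more often. Promoters held 1400 summits, or 46.7% (44.9 to 48.4%), against 1672, or 55.8% (54.0 to 57.5%), of the accepted set and 13.6% of arm bases (Fisher's exact test, two-sided, adjusted p = 1.22e-11 over 7 classes). Introns held 1107, or 36.9%, against 955, or 31.8% (Fisher's exact test, adjusted p = 9.43e-05), and 39.5% of arm bases. Intergenic sequence held 389, or 13.0%, against 275, or 9.17% (Fisher's exact test, adjusted p = 1.11e-05), and 27.2% of arm bases. Promoters therefore remained the most frequent class, at 3.44 times their share of the arms. Neighbouring peaks are not independent draws, which these tests treat them as.

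**Figure D3:**
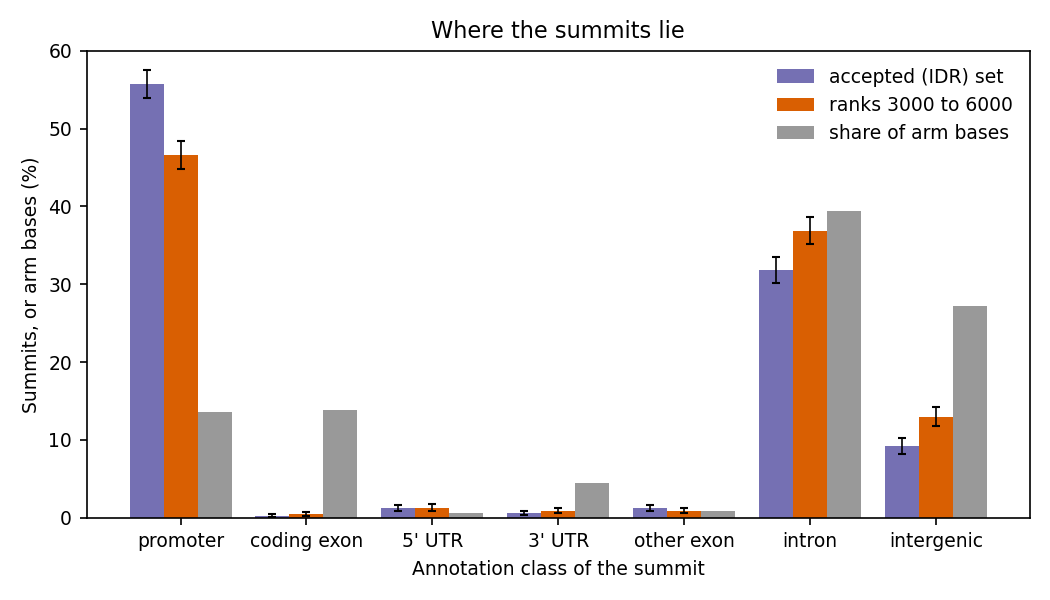
Share of summits in each annotation class (vertical axis, %) for the accepted set and ranks 3000 to 6000, beside the share of arm bases in that class; bars start at 0 and error bars are 95% Wilson intervals. Promoter bars stand at 55.8% and 46.7% over 13.6% of bases, and coding exon bars are close to 0 over 13.9% of bases.

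Coding exons stayed nearly free of summits. They held 14 members, or 0.467% (0.278 to 0.782%), and 7 of the accepted set, or 0.233%, while making up 13.9% of arm bases (members against the accepted set, Fisher's exact test, adjusted p = 0.239). The 14 include summits nearest to Diap1, the gene of an inhibitor of cell death, InR, the insulin receptor gene, and Ptp4E, a receptor tyrosine phosphatase gene, which were named with their values already in view. The 5' UTR (38 members against 37), 3' UTR (27 against 17) and other exons (26 against 36) did not pass either (adjusted p = 1, 0.239 and 0.239 by Fisher's exact test). Without replicate 3, that is in replicate 4's own list, the coding exon difference rose from 0.233 to 0.633 points and passed (Fisher's exact test, adjusted p = 0.00224), as did the 3' UTR difference, from 0.333 to 0.666 points (Fisher's exact test, adjusted p = 0.0161). Further down the pooled list the coding exon share rose, to 1.33% in the 3000 ranks after rank 6000 and 4.57% in the 3000 after those.

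Position relative to the start site also shifted. The median distance of a summit from the nearest TSS was 630 bp for members, 338 bp for the accepted set and 943.5 bp for the 3000 ranks after rank 6000. Of the promoter members, 69.7% lay on the upstream side, beside 74.7% of the stronger promoter summits. Divergent promoters, where coding genes on opposite strands start within 500 bp of the summit and point apart, made up 390 of 1400 promoter members, or 27.9%, against 564 of 1672, or 33.7% (Fisher's exact test, two-sided, p = 0.000491). Summits beyond 5000 bp from any TSS numbered 458, or 15.3%, beside 10.9%. By the median distance and the share beyond 5000 bp, the members were the more distal set.

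The arms carried members in proportions that did not pass against the accepted set (Fisher's exact test, two-sided, adjusted p from 0.120 to 0.950 over 6 arms). Densities ran from 20.9 per Mb on 2R to 24.2 per Mb on X, apart from chromosome 4 with 13 members, or 9.64 per Mb. The nearest TSS belonged to a protein-coding gene for 2592 members (86.4%) and to an ncRNA gene, a class that here includes antisense and long non-coding RNAs, for 365 (12.2%). The snRNA genes, which encode the RNAs of the splicing machinery, had 9 of 32 with a member and no summit of the accepted set within 1000 bp, where 0 of 32 had a stronger summit. The same count was 1529 of 13945 protein-coding genes (11.0%), 22 of 290 tRNA genes (7.59%), 19 of 269 snoRNA genes (7.06%) and 204 of 3261 ncRNA genes (6.26%), and these shares were not tested against each other. Copies of snRNA genes are near-identical, and their values are uncertain because how reads were shared among them is listed as not given in the sources used here, as is the aligner.

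The GAGA repeat was present at fewer members than stronger peaks, and still more often than beside them. GAGAG on either strand lay within 100 bp of 804 summits, or 26.8% (25.2 to 28.4%), against 22.1% of windows of equal width centred 1000 bp to the left of the same summits (adjusted p = 4.06e-05 over 10 elements by a two-sided exact McNemar test). In the accepted set the share was 33.1% (members against these, Fisher's exact test, two-sided, adjusted p = 9.81e-07). Across all windows of that width on the arms it was 21.5%, and around all protein-coding TSSs 25%. Against the window 1000 bp to the right the members' difference was 2.33 points (exact McNemar test, adjusted p = 0.0461), beside 4.70 points on the left. In windows of 50 bp either side, GAGAG was at 14.4% of member summits, 15.8% centred 100 bp to the left and 16.3% to the right. It was thus not highest at the summit itself, nor was it in the accepted set (17.0%, 21.7% and 21.0%). The longer GAGAGAG, which lies within the shorter repeat's count, was at 6.73% of members, 3.40% of flanks (exact McNemar test, adjusted p = 6.42e-09) and 9.64% of the accepted set (Fisher's exact test, adjusted p = 0.000203). The difference of GAGAGAG from the accepted set, -2.91 points, did not pass within 50 bp of the summit (-0.77 points, adjusted p = 0.330 by Fisher's exact test) or for members recovered by both replicates (-1.02 points, adjusted p = 0.539 by the same exact test). A match is a description of the letters, and most members had none.

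The repeat was also counted by class and by replicate support. At promoter members GAGAG stood at 24.6% against 21.9% in their flanks, a difference that did not pass when tested in that class alone (exact McNemar test, adjusted p = 0.132), and beside the 25% of all protein-coding TSSs. Outside promoters it stood at 28.7% against 22.2% (exact McNemar test, adjusted p = 8.99e-05). Promoter and other members were not tested against each other. The 1323 members recovered by both replicates held it in 30.1%, and the 1678 others in 24.2% (Fisher's exact test, two-sided, adjusted p = 0.00177 over 10 elements). Without the members beside a stronger summit the shares were 29.7% and 22.9% (Fisher's exact test, adjusted p = 0.00275). These splits were chosen after the data were seen. Members recovered by both also had higher pooled scores, with a median of 61.7. The medians were 52.6 with replicate 3 alone, 53.3 with replicate 4 alone and 47.9 with neither. A difference by support at equal score was not tested. Restricted to members recovered by both, the difference from the accepted set was 3.03 points lower and did not pass (adjusted p = 0.444 by Fisher's exact test), nor did the difference of all members within 50 bp of the summit (adjusted p = 0.0626).

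The DRE, TATCGATA, is bound by Dref and by the insulator protein BEAF-32 and is typical of promoters of broadly active genes. It lay at 125 members, or 4.17% (3.51 to 4.94%), and in 12 of their flanks, or 0.40% (exact McNemar test, adjusted p = 7.05e-24). Outside promoters the share was 0.687% against 0.250% of flanks, which did not pass (exact McNemar test, adjusted p = 0.169). Of the 125, 114 were promoter summits, where the share was 8.14%, beside 6.45% around all protein-coding TSSs. At the stronger promoter summits it was 5.26% (promoter members against these, Fisher's exact test, adjusted p = 0.0127). The octamer was thus more frequent at promoter members than at promoter peaks of the accepted set, the opposite order to GAGAG (24.6% against 29.2%, Fisher's exact test, adjusted p = 0.0127). Over all summits, promoter or not, the DRE difference from the accepted set did not pass (adjusted p = 0.107 by Fisher's exact test). Windows printed above for Flacc, RpS14a, Caper and CG31957 are among these 114.

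GGTCACAC, the core of promoter motif 1, which M1BP binds, likewise lay mostly at promoter members. It was at 80 members, or 2.67%, against 0.633% of flanks (exact McNemar test, adjusted p = 9.07e-10), and 76 of the 80 were promoter summits. At promoters the shares were 5.43% for members and 3.65% for the accepted set (Fisher's exact test, adjusted p = 0.0448), beside 5.68% around all protein-coding TSSs. TATAAA, the TATA box letters, was at 29.9% of members against 21.3% of flanks (exact McNemar test, adjusted p = 1.05e-13) and 29.5% of the accepted set. Outside promoters it was 5.06 points higher than in the accepted set (Fisher's exact test, adjusted p = 0.00787), and at promoters -3.64 points, which did not pass (adjusted p = 0.0616 by Fisher's exact test). Both the CA repeat CACACACA (6.40% against 4.77%) and the A run AAAAAAAA (15.4% against 12.2%) also passed against flanks (exact McNemar test, adjusted p = 0.00822 and 0.000428), and the Pho core GCCATT, named for the Polycomb recruiter, was rarer than in flanks (9.63% against 13.2%, adjusted p = 3.58e-05, exact McNemar test). The CA repeat did not pass in 5 alternatives (exact McNemar test): within 50 bp (adjusted p = 0.188), against the right flank (0.336), without members beside a stronger summit (0.0699), outside promoters (0.336) and without replicate 4 (0.160). The A run did not pass for members recovered by both replicates (exact McNemar test, adjusted p = 0.0749) or outside promoters (0.169). The Pho core difference, -3.53 points, was -1.33 points without replicate 3 (exact McNemar test, adjusted p = 0.132) and -2.07 points at promoter summits (exact McNemar test, adjusted p = 0.118), and passed in neither. CAGGTAG, bound by the early embryonic activator Zelda (1.03% against 0.933%), and the E-box CACGTG (2.03% against 2.43%) did not pass (exact McNemar test, adjusted p = 0.791 and 0.380).

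**Figure D4:**
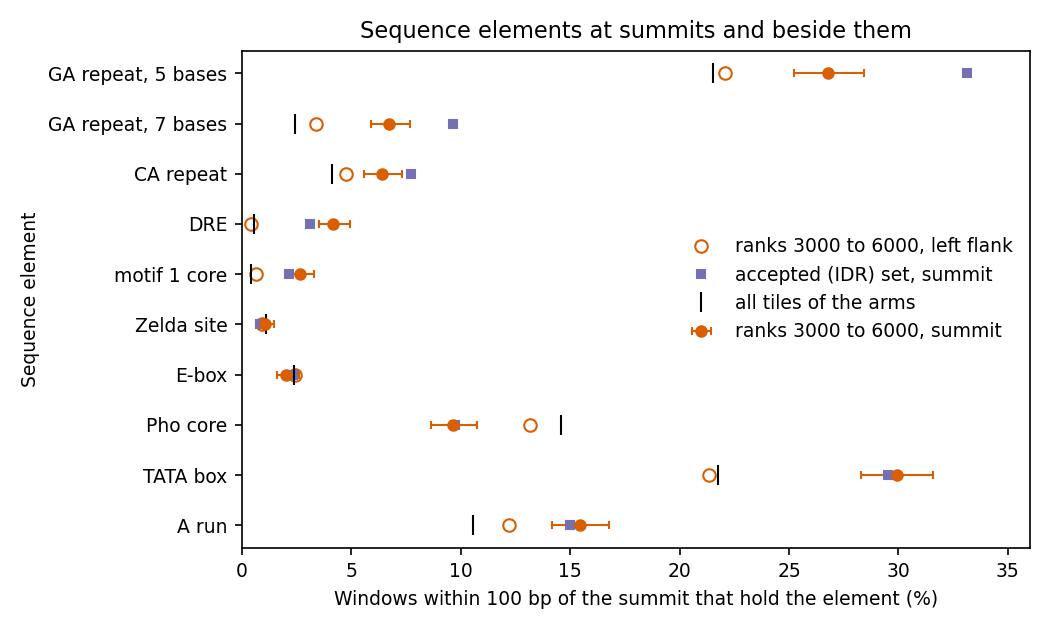
Share of windows within 100 bp of the summit that hold each of 10 sequence elements (horizontal axis, %; elements named on the vertical axis): members at the summit with 95% Wilson intervals, members at the left flank, the accepted set at the summit, and all tiles of the arms. The GA repeats fall between the stronger peaks and the flanks. The DRE and the motif 1 core sit slightly to the right of the stronger peaks, by differences that did not pass over all summits.

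The members added many genes. Protein-coding genes with a summit of the accepted set within 1000 bp of any TSS numbered 2265 of 13945, or 16.2%. Member summits reached 1991 genes, of which 462 already had a stronger summit. They added 1529, which is 13.1% of the 11680 genes without one, and ranks 1 to 6000 together reached 3794, or 27.2%. Of the added genes, 597, or 39.0%, had a member that both replicates recovered, and the like counts by list below stand beside that share. Only 1194 members added any protein-coding gene, and some genes were reached because a neighbour's promoter lies within the window: giving each summit its nearest gene alone left 1138 added genes. In the counts that follow, a list gained some of its genes that had no stronger summit, so that the total given is those genes unless the whole list is named. Among the 81 added genes of these lists that were looked at singly, 20 had a summit nearer to a TSS of another gene and 3 a summit as near to one. The first kind include lolal, pzg, Set2, wls, smo, sav, grh, mRpL51, mRpL34, Rpt5, Prosbeta1 and Cpr65Ay besides those named as such below. A count without 1 replicate is taken from the other replicate's own list, where the stronger ranks change too, and is given where it differs by over 1.5 times. Each list is read against that 13.1% and has no test, and these lists were written with earlier results of these data known.

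**Figure D5:**
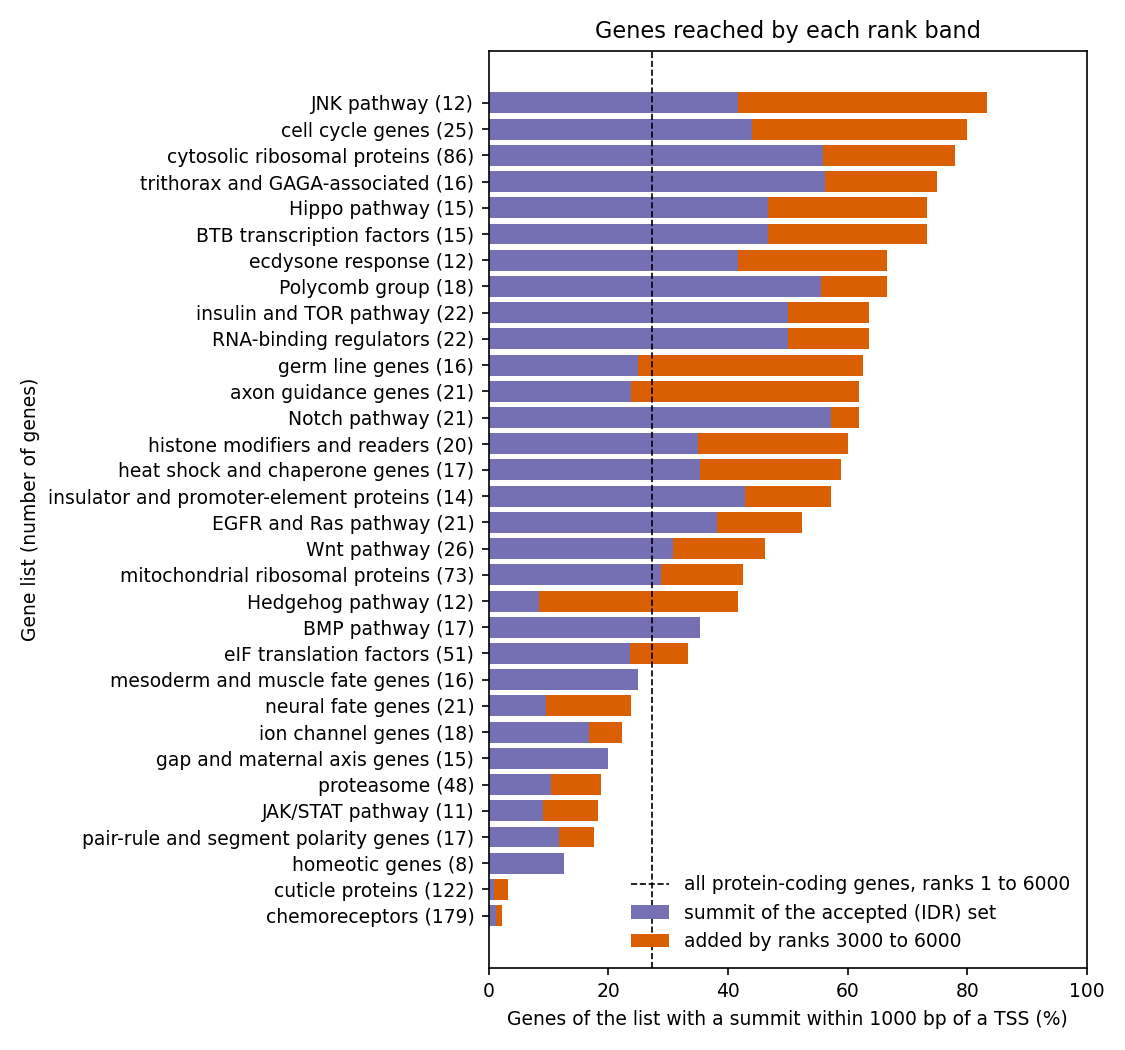
Percent of the genes of each list (vertical axis, with the number of genes) with a summit near a TSS, within 1000 bp (horizontal axis), from the accepted set and added by ranks 3000 to 6000; the dashed line is the 27.2% of all protein-coding genes. JNK pathway, cell cycle and cytosolic ribosomal protein genes are at the top, and chemoreceptor and cuticle protein genes at the bottom.

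Chromatin regulators gained several well-known genes. In the list of trithorax and GAGA-associated genes, 9 of 16 had a stronger summit and members added 3 of the other 7: ash1, which encodes a histone methyltransferase (score 63.6), lolal, a BTB gene whose protein partners the GAGA factor (63.1), and osa, a subunit gene of the Brahma remodelling complex (51.8). Both replicates recovered 0 of these 3, and without replicate 3 the list gained 0. The ash1 peak ranked 3432 in replicate 3 and 6859 in replicate 4, and the osa peak 16411 and 2847, so the latter rested on replicate 4. Of the Polycomb group, members added 2 of 8, Pc (score 62.5, ranks 3087 and 4765) and phol (49.0, ranks 11792 and 4209), and without replicate 4 the list gained 1. Pc encodes the chromodomain protein that binds methylated histone H3, and phol a relative of the recruiter Pho. The ash1 summit was closer to a TSS of Taf6, and that of phol to one of CG3552.

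Of the BTB transcription factors, to which Psq belongs, members added 4 of 8: br, lolal, chinmo and ttk. The br summit (score 69.0), in an intron and 963 bp from the nearest TSS of br, was recovered by both replicates. The others ranked past 6000 in at least 1 replicate, and without replicate 3 the list gained 1. Of the insulator and promoter-element proteins, members added 2 of 8, CTCF (63.4) and pzg (60.5), and both replicates recovered both, while without replicate 4 the list gained 4. CTCF encodes an insulator protein and pzg a partner of Dref, whose element is described above. Of the histone modifiers and readers, members added 5 of 13: Kdm2, HDAC3, Lpt, Set2 and the gene of heterochromatin protein 1, with scores from 57.5 to 70.3. HDAC3 was the only one of these 5 that both replicates recovered, while the peak at the gene of heterochromatin protein 1 ranked 10343 in replicate 3 and 2200 in replicate 4. With either replicate left out this list gained 3.

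Signalling pathways differed in what the members added. The Hedgehog list had 1 of 12 genes with a stronger summit, and members added 4 of the other 11: the receptor gene ptc (score 50.6), the signal transducer gene smo (53.7), the co-receptor gene boi (52.8) and disp (67.7), whose product releases the ligand. Of these the disp summit was recovered by both replicates, and it was nearer to a TSS of ECSIT. The smo peak ranked 3368 in replicate 3 and 14632 in replicate 4, and the ptc peak 10269 and 4505. The other 3 were each among the 6000 strongest of 1 replicate only. Giving each summit its nearest gene alone, the list gained 2.

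The Hippo list gained 4 of 8: the kinase genes wts (69.7) and dco (72.1), the transcription factor gene sd (60.4) and the scaffold gene sav (49.9). Both replicates recovered 3 of these. The wts peak ranked 1291 in replicate 3 and 2876 in replicate 4, above the member range in either. Without replicate 4 the Hippo list gained 2. The JNK list gained 5 of 7: Jra, the gene of the transcription factor Jun, the kinase genes slpr, bsk and Tak1, and the receptor gene wgn. The Jra peak ranked 28879 in replicate 3 and 1325 in replicate 4, and slpr was the only one of the 5 that both recovered. Without replicate 3 the JNK list gained 2.

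The EGFR and Ras list gained 3 of 13: pnt, an ETS factor gene downstream of the pathway, sty, the gene of its feedback inhibitor, and csw, a phosphatase gene. The pnt and sty summits, with scores of 66.6 and 65.9, were recovered by both replicates. The Wnt list gained 4 of 18, all with a member that at least 1 replicate missed: the receptor genes fz2 and fz3, the negative regulator gene Apc, and wls, whose product carries Wnt out of the cell. The insulin and TOR list gained 3 of 11, foxo, S6k and Lnk, and the ecdysone list 3 of 7, br, usp and Eip63E. The Notch list, where 12 of 21 genes already had a stronger summit, gained only kuz, the gene of a receptor-cleaving protease, of 9. The JAK/STAT list gained only Ptp61F of 10, and the BMP list 0 of 11. Lists this small leave such shares loose: without replicate 4 the Notch list gained 3, with either replicate left out JAK/STAT gained 0 and BMP 1, and with a window of 2000 bp in place of 1000 bp JAK/STAT and BMP each gained 3.

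Embryonic patterning lists are short, so that few additions could be seen in any of them. Members added 0 of 7 homeotic genes, 0 of 12 gap and maternal axis genes and 0 of 12 mesoderm and muscle fate genes. Of 15 pair-rule and segment polarity genes they added ptc alone. Without replicate 4 the homeotic and mesoderm lists gained 2 each and the pair-rule list 0, and without replicate 3 the pair-rule list gained 3. Of 19 neural fate genes they added 3: grh (score 64.6) and insc (59.6), both recovered by both replicates, and da (48.5). These encode a transcription factor of the epidermis and nervous system, an adaptor in neuroblast division and a broad bHLH partner protein.

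Axon guidance genes gained 8 of 16, or 50%. Without replicate 3 they gained 5, and both replicates recovered a member for 4. The highest-scoring were Ten-m (69.1), a teneurin gene, robo2 (66.3), a gene of a receptor for Slit, and Lar (63.1), a receptor phosphatase gene. The Ten-m peak ranked 4885 in replicate 3 and 1901 in replicate 4, the robo2 peak 4238 and 3261, and the Lar peak 10686 and 2244, so that replicate 4 ranked all 3 higher. Of 15 ion channel genes only Ca-alpha1T was added (51.7), and without replicate 4 there were 2.

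Cell cycle genes gained 9 of 14, of which both replicates recovered 4. The strongest were fzr (68.0), an activator of the anaphase-promoting complex, Cdk1 (67.5), the mitotic kinase gene, and grp (61.4), a checkpoint kinase gene. The Cdk1 summit was nearer to a TSS of mRpS7, and the grp summit to one of CG31807. Cytosolic ribosomal protein genes gained 19 of 38, among them RpL3 (70.7) and RpS9 (68.5), and both replicates recovered 9 of the 19. With the 48 that had a stronger summit, 67 of 86 were reached. Mitochondrial ribosomal protein genes gained 10 of 52, led by mRpL51 (71.3), mRpL34 (69.1) and mRpS7 (67.5).

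Translation initiation factor genes gained 5 of 39, or 12.8%, near the 13.1% of all genes without a stronger summit. They were eIF4A (67.3), eIF2A (66.8), eIF4E1 (65.4), eIF3m (58.7) and eIF4G2 (54.0). The proteasome gained 4 of 43, or 9.30%, below that 13.1%: Rpn11, Rpt5, Prosbeta1 and Prosalpha5. Germ line genes gained 6 of 12, and both replicates recovered 4 of the 6. Its strongest were the piRNA pathway genes piwi (71.9), spn-E (61.7) and tej (57.3), each recovered by both. The RNA-binding regulators gained piwi, vas and bru1 of 11, and without replicate 3 they gained 5. The vas summit was as near to a TSS of solo. The heat shock and chaperone list gained 4 of 11, Hsp68, Hsp60A, Hsc70-4 and Hsc70-3. The Hsp68 summit lay 914 bp from its TSS and 63 bp from that of SMC1, and the Hsc70-4 peak ranked 2653 in replicate 3 with no overlapping peak in replicate 4.

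Chemoreceptor and cuticle protein genes were nearly absent. Members added 2 of 177 chemoreceptor genes (1.13%), Ir60b and Gr63a, both at summits closer to other genes, Letm1 and Lamtor4. Without replicate 3 the chemoreceptor list gained 0 and without replicate 4 it gained 1. They added 3 of 121 genes matched by the cuticle protein name pattern (2.48%): Cpr67Fb, Cpr65Ay and Cpr. The last of these encodes a cytochrome P450 reductase and shares only its letters with the family. Both lists were far under the 13.1% of genes without a stronger summit. In the accepted set, 1.12% and 0.820% of each list had a summit, beside 16.2% of all protein-coding genes.

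The highest-scoring members recovered by both replicates and with no stronger summit within 1000 bp were a mixed group. Of the first 20 in this order, 10 were promoter summits, 7 intronic and 3 intergenic. Besides those shown above they included intronic summits nearest to Su(z)2 (72.4), a relative of the Polycomb group gene Psc, and to PRAS40 (72.3), the gene of an inhibitor of TOR. Others were nearest to mam (72.2), the Notch co-activator gene, and to CHES-1-like (72.1), a forkhead factor gene. Promoter summits included those at CG1307, Nulp1, the bHLH gene net, gfzf, CG3760, CG3226, Socs16D, a suppressor of cytokine signalling gene, and dco. Intergenic summits lay 2017 bp from a TSS of the actin gene Act87E and 2525 bp from one of lncRNA:CR45303. The Socs16D summit lay 3 bp from a TSS and ranked 3108 in replicate 3 and 2659 in replicate 4. In replicate 3 these 20 ranked between 1921 and 5559, and in replicate 4 between 2067 and 5510.

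Several long genes held many members. The psq gene itself had 11 member summits in its 59.4 kb on 2R (10557888 to 10617280, plus strand), all in introns, beside 19 of the accepted set. Their scores ran from 46.7 to 70.4, and 4 of the 11 were recovered by both replicates. The strongest, at rank 3153 (10601423 to 10601862), ranked 4193 in replicate 3 and 2962 in replicate 4. The weakest, at rank 5913, ranked 12505 and 3482. A pair of psq members had no overlapping peak in replicate 4, and all 11 had one in replicate 3. All embryos came from the transgenic psq-GFP line, and any bearing of the transgene on the counts at this locus was not tested.

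CG1677 and kirre, both on X, also had 11 member summits each. In kirre, a gene of a cell adhesion protein for muscle fusion, they were spread over 394 kb, or 0.279 per 10 kb, beside 1.85 per 10 kb in psq, and 8 of the 11 had no stronger summit within 1000 bp. The pnt gene had 10 in 55.9 kb with 2 stronger summits, and CG32264 had 10 in 91.6 kb with 3. In contrast to psq, these 4 genes each had more member summits than stronger ones, since CG1677 had 9 and kirre 3 of the latter. Trl, which encodes the GAGA factor, had 1 member beside 3 stronger summits, at rank 3415 on 3L (14757886 to 14758325, score 67.0), at the promoter of the overlapping gene CG42507. It ranked 3145 in replicate 3 and 3442 in replicate 4, and its summit window held GAGAG.

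The same rank band of the dm3 lists gave a similar picture. Both replicates recovered 44.9% of it, against 44.1% on dm6. Of its peaks, 2 lay outside the main arms, in heterochromatic scaffolds.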

How the data were processed

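ChIP-seq peak lists of 2 biological replicates were used. The authors deposited a list of 30000 peaks, background included, per replicate (called against a control alignment) and for both pooled, and from these the IDR set, per the file headers and accompanying text. The accepted set has 2999 peaks and the members number 3001. Aligner, caller, versions and IDR threshold count as not given in the sources used here. Each deposited score is the caller's own statistic. The deposited −log10 q-value is capped in each list, and the summit comes from the deposited offset. The files hold no read numbers, so depth is unknown. Chromatin was sonicated to 200 to 800 bp, per the labels.

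Coordinates are dm6, 1-based. Gene models came from Ensembl release 115 and sequence from the RefSeq dm6 assembly, on arms 2L, 2R, 3L, 3R, 4 and X. Summits outside promoters took the first class that applied: coding exon, UTR (5' before 3'), other exon, intron, intergenic. Fisher's exact and exact McNemar tests (scipy 1.17.1, Python 3.11.15) were adjusted by Benjamini-Hochberg with a threshold of 0.05 and tested on simulated data. The members, 32 gene lists and 10 elements were chosen with earlier results of these data known. Named genes were the 20 strongest lone members recovered by both replicates, up to 3 added genes per list by score, every added gene of lists with 5 or fewer, peaks at both limits, the 5 genes with the most members, psq and Trl; others are said to be chosen later. Splits by replicate support, promoter splits against flanks, gene counts without members beside stronger summits, and the GAGAGAG windows were added after seeing the data. Some sequence and some genes are not reported here. The labels put both samples in 1 group, so no groups were compared.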

Additional observations from a re-analysis of the deposited data

How the results depend on the processing

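The share of members recovered by both replicates, 44.1%, depended on its definition. It was 40.0% when the overlap had to cover 50% of the shorter peak, 28.1% with summits within 100 bp, 8.06% and 76.5% with the 3000 and 9000 strongest peaks per replicate, 38.3% for members with no stronger summit within 1000 bp, and 65.7% for the first 1500 members. With 1 replicate left out no share for both exists. What remains is the recovery of the same members by a single replicate, 68.8% for replicate 3 and 71.6% for replicate 4. Each of these settings asks for another list length, overlap, set of members or number of replicates. Only the dm3 lists (44.9%) gave a value within the interval.

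The promoter difference from the accepted set kept its direction and passed in all 8 alternatives, and with 1 replicate left out ranged from -11.5 to -8.60 points. The coding exon difference ranged from 0.233 to 0.633 points with 1 replicate left out, and passed without replicate 3 (Fisher's exact test, adjusted p = 0.00224). Added genes numbered 597 with members recovered by both replicates, 805 with the first 1500 members and 1138 to 1749 in the other settings. Of the alternative counts for single lists, 79 moved by over 1.5 times and 177 did not. With replicate 4's own ranks in place of the pooled list 856 of the 1529 were shared, and with replicate 3's 865.

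GAGAG against flanks passed in all alternatives except promoter summits only (2.64 points, exact McNemar test, adjusted p = 0.132). Against the accepted set it passed in all except the 50 bp window (-2.58 points, Fisher's exact test, adjusted p = 0.0626) and members recovered by both (-3.03 points, Fisher's exact test, adjusted p = 0.444). Reversed differences, none past the threshold as reported or as reversed save where stated, were as follows, in points. The 5' UTR gave -0.47 (250 bp promoters), -0.18 (no stronger summit) and -0.30 to 0.27 with 1 replicate left out. Against flanks the E-box gave 0.23 (250 bp window) and -0.30 to 0.033 (1 replicate left out), the Zelda site -0.23 (right flank), -0.37 (flank at 2000 bp) and -0.33 to -0.067 (1 replicate left out), and the motif 1 core -0.44 outside promoters, though it passed over all members. Against the accepted set the 250 bp window gave -0.60 for the DRE, -0.035 for the Zelda site and 0.35 for the Pho core, and the 50 bp window -0.18 for the TATA box. Promoter summits gave 0.88 for the CA repeat, -3.64 for the TATA box and -0.40 for the A run, and other summits -0.052 for the motif 1 core and -0.094 for the Zelda site. Members recovered by both gave 0.997 for the Pho core and -0.71 for the TATA box. With 1 replicate left out the E-box ranged from -0.67 to 0.43, the Pho core from -0.57 to 0.16, the TATA box from -0.62 to -0.42 and the Zelda site from -0.13 to 0.47. The cause was not tested. No paired analysis was possible because there is 1 group. Depth is unknown, so no precision can be drawn from it.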
